A study of Homo sapiens with 6 samples.

Results

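The genes described here are 10 regulators of the G1 phase of the cell cycle: the D-type cyclins CCND1, CCND2 and CCND3, the E-type cyclins CCNE1 and CCNE2, the CDK inhibitors CDKN2A, CDKN2B, CDKN1A and CDKN1B, and the retinoblastoma gene RB1. They were taken by gene symbol from a table of 26899 genes. All 10 were found and all 10 were among the 15299 genes that passed the low-count filter and were tested. The RNA came from HK-2, a long-used cell line derived from the proximal tubule of the human kidney and transformed with human papillomavirus 16, so every library of both groups carries that virus background. Plasmids were delivered with a lipid reagent, and polyadenylated RNA was sequenced. In 3 libraries the cells were titled wild type and abbreviated shCtrl, and in 3 they were labelled ANXA2 knockdown and abbreviated shANXA2, with replicates numbered 1 to 3 in each group. Whether the control cells carried a control hairpin is not settled by the labels, and neither the time after transfection nor any selection of transfected cells is given there. Nothing in the labels says that replicates were separate cultures, so the p-values measure only the spread between these libraries, which may be technical. In bulk RNA, fewer cells in a phase of the cycle and less RNA per cell cannot be told apart.

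In G1, D-type cyclins activate CDK4 and CDK6, and E-type cyclins activate CDK2. These kinases phosphorylate the RB protein, which then releases E2F transcription factors and lets the genes of S phase be transcribed. The INK4 inhibitors, encoded by CDKN2A and CDKN2B, block CDK4 and CDK6, whereas the CIP/KIP inhibitors p21 (CDKN1A) and p27 (CDKN1B) act on a wider range of cyclin-CDK complexes. The E7 protein of high-risk papillomaviruses binds RB and promotes its breakdown, so in cells transformed by such viruses the RB protein is inactivated and p16 from CDKN2A is known to accumulate without arresting growth. Viral transcripts were not analysed here.

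Counted reads per library ranged from 24231267 (control replicate 1) to 34561675 (knockdown replicate 1). ANXA2, the gene named in the labels, reached 1598 ± 119 CPM (read counts scaled to library depth and, by the TMM method, to library composition) in the libraries labelled control and 1539 ± 21.3 CPM in those labelled knockdown (SD, n = 3), with an edgeR adjusted p of 0.848. The 95% interval of the difference, -14.3% to 8.29%, included no change, so a lower ANXA2 transcript was not detectable and each direction below is a difference between labels. Of the 7 proximal tubule markers analysed, GGT1 alone had at least 10 reads in every library, and HNF4A, CUBN, AQP1 and ANPEP stayed at or below 0.05 FPKM. The epithelial genes KRT8 and KRT18 and the renal lineage gene PAX8 were abundant (365.5 to 570.5, 211.9 to 292.6 and 76.1 to 149.6 FPKM). From the same list, KRT19 gave 63.2 to 117.1 FPKM and EPCAM 27.2 to 32.8 FPKM. PAX2 was low at 1.04 to 2.29 FPKM, and the epithelial cadherin gene CDH1 had at most 0.11 FPKM (2 to 16 reads). Summed FPKM was 1.39 to 3.11 for leukocyte markers (from CD14 and CD68), 0 to 0.07 for endothelial markers and 7.87 to 10 for fibroblast markers, mostly from LUM.

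In order to establish the baseline, the members were first ranked by FPKM, the deposited values scaled for gene length and library depth. CDKN2A was the most abundant member in each of the 6 libraries, and its lowest value was 104.3 FPKM against a highest value of 47.3 FPKM for any other member. Its mean of 117.7 FPKM placed it at rank 515 of the 15299 tested genes. CCND1, CDKN1A and CCND3 formed a second tier, with means of 37.8, 34.5 and 30.2 FPKM. The ranges of neighbouring genes overlapped within that tier, although CCND1 was above CCND3 in each of the 6 libraries, at 1.04 to 1.53 times its FPKM. The other 6 members lay lower, at 6.82 FPKM for CDKN1B, 5.8 for CCNE1, 5.11 for RB1, 3.72 for CCNE2, 3.34 for CCND2 and 2.34 for CDKN2B. All neighbours in this lower tier overlapped as well, whereas CCND3 exceeded CDKN1B in 6 of 6 libraries without overlap. In total 7 of the 9 neighbouring pairs overlapped.

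**Figure D1:**
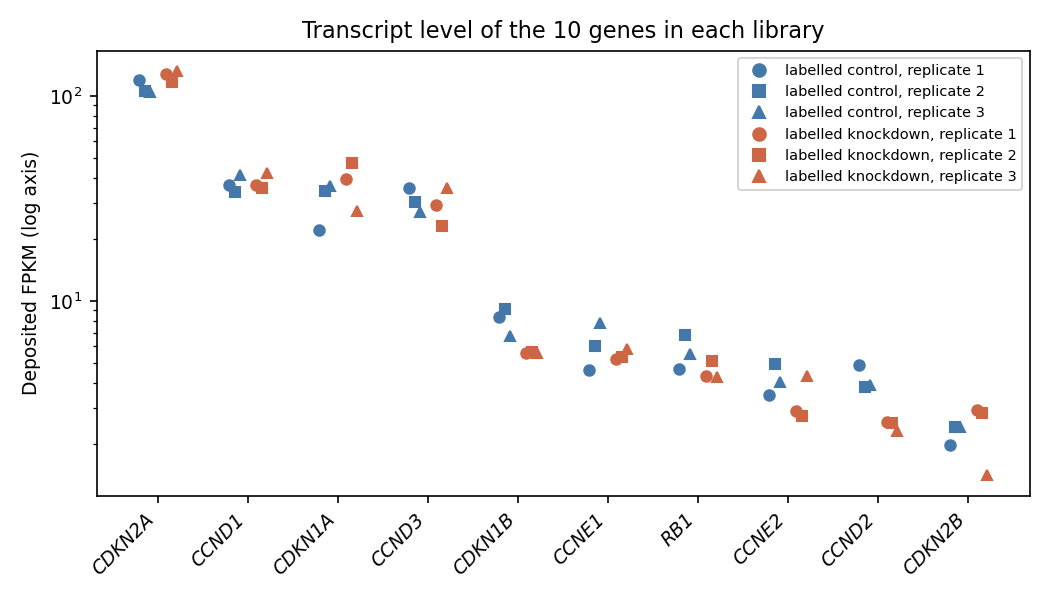
Deposited FPKM of the 10 genes on a log axis, with 1 point per library coloured by label and shaped by replicate number. CDKN2A lies above every other gene in all 6 libraries, and a gap separates CCND1, CDKN1A and CCND3 from the 6 lower genes.

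CDKN2A encodes p16, which inhibits CDK4 and CDK6, and, from another first exon read in a different frame, the protein ARF. In GRCh38 the gene (ENSG00000147889.16) spans 21967752 to 21995301 of chromosome 9, minus strand, and the gene-level counts add transcripts from both starts. The sequences before the 2 starts are shown because the abundance of CDKN2A cannot be divided between them in these counts. They are RefSeq promoter windows on GRCh38.p14, written 5′ to 3′ on the minus strand, with the GC box letters GGGCGG (either strand) in capitals. The ARF window is chr9:21995325-21995574 and the p16 window is chr9:21974867-21975107, from which 9 bases annotated as exon were left off at the 3′ end.
ARF start: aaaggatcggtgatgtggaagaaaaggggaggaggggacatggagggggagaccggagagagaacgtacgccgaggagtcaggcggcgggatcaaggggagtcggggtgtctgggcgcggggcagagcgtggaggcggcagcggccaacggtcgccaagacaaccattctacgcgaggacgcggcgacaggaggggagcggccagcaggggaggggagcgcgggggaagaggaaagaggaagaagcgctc
p16 start: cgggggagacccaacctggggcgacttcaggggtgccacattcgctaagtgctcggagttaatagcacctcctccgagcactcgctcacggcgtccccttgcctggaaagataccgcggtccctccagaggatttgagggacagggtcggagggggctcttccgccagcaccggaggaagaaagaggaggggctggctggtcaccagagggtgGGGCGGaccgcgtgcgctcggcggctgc

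The p16 window held 1 GC box and the ARF window none. Over 35116 promoter windows of 250 bases, 42.6% held that motif, as did 7 of the 10 windows given for the members CDKN1A, CDKN1B, CDKN2A, CDKN2B, CCND3, CCNE1 and RB1. The E2F motif TTTNNCGC, searched on both strands, occurred in 5.92% of all windows and in 0 of those 10. CCND3 and CDKN2A each had more than 1 of these windows. The RB1 window precedes base 48476450, inside the gene, which starts at 48303744. It is therefore not the sequence before the first RB1 start, which was not searched. The windows of CDKN1A, CDKN1B and CCND3 also lie inside the annotated spans of those genes. A match is a description of letters and not of binding. CCND1, CCND2 and CCNE2 were not matched in the promoter table.

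The libraries labelled control held 9757, 11350 and 10834 CDKN2A reads and those labelled knockdown held 14726, 13026 and 12742. Scaled for depth, this gave 400, 347.2 and 347.8 CPM against 431.5, 394.5 and 441.3 CPM. Control replicate 1 lay above knockdown replicate 2, so the groups overlapped. The edgeR estimate on the log2 scale was 0.21 (SE 0.0923), adjusted p 0.608, and the 95% interval of the difference ran from 0.2% to 33.7%. Without control replicate 1, or without knockdown replicate 2, the groups did not overlap. CDKN2A no longer had an unadjusted p under 0.05 with upper-quartile scaling, library size only, DESeq2 or 2 of the FPKM fits, nor without control replicate 2, control replicate 3, knockdown replicate 1 or knockdown replicate 3.

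CDKN2A was then set against the cyclins and RB within each library. Its FPKM was that of CCND1 multiplied by 3.25, 3.11 and 2.53 in the libraries labelled control and by 3.48, 3.28 and 3.13 in those labelled knockdown. The mean log2 ratio was 1.56 ± 0.192 and 1.72 ± 0.0773 (SD, n = 3), a difference of 0.16 that is smaller than the spread in the libraries labelled control and that was 0.053 without control replicate 3. Against the 3 D-type cyclins summed, CDKN2A stood at 1.55, 1.55 and 1.44 times in the libraries labelled control and 1.86, 1.9 and 1.65 times in those labelled knockdown, and these groups did not overlap. The ratio to the sum was not tested and, unlike those to CCND1 and RB1, was not repeated with libraries left out. No share of non-overlap was taken for ratios. Against RB1 the ratio was 25.6, 15.4 and 18.9 in the libraries labelled control and 29.6, 23.1 and 31.1 in those labelled knockdown. Knockdown replicate 2 fell within the range of the controls. The difference of the mean log2 ratio to RB1 was 0.50, with a range of 0.33 (without control replicate 2) to 0.70 (without control replicate 1). CDKN2A exceeded CCND1 and RB1 in all 6 libraries.

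**Figure D2:**
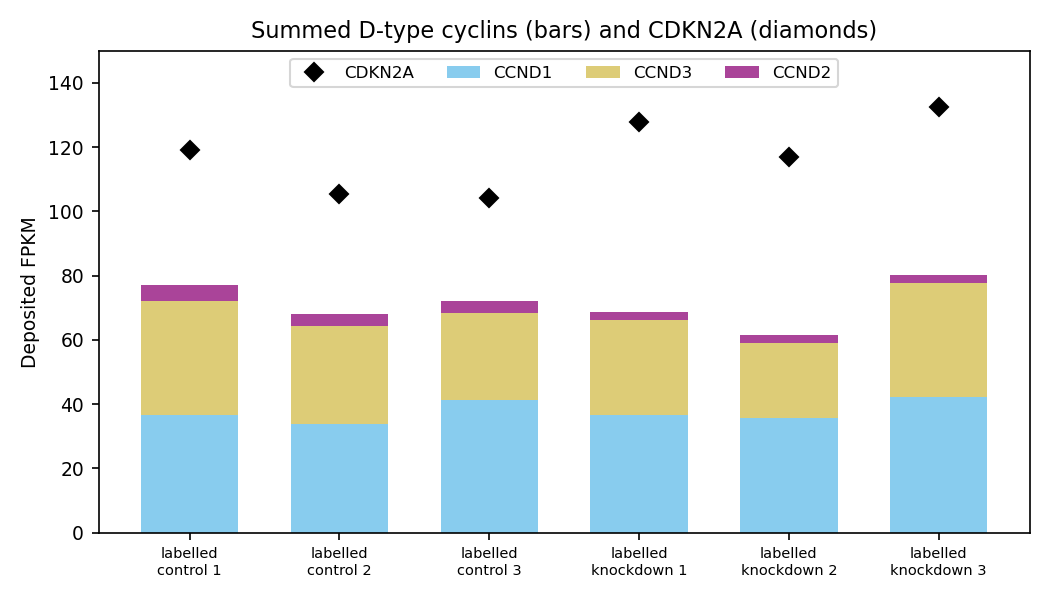
Stacked bars give the FPKM of CCND1, CCND3 and CCND2 in each library and diamonds give CDKN2A. CDKN2A exceeds the sum of the D-type cyclins in all 6 libraries, with ratios of 1.44 to 1.9, and CCND2 is the thinnest layer.

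The level of CDKN2A per transcript depends on the length by which its reads were divided. The deposited FPKM implied a length of 3335 bases for CDKN2A, whereas the canonical p16 transcript in GENCODE release 44 has 978 bases. Implied lengths assume that FPKM were scaled to the summed counted reads of each library, which was not checked. The same total enters every gene. For CCND3 the lengths were 4164 and 2026 bases, and for RB1 they were 5109 and 4768. With each member scaled to its canonical transcript, CDKN2A stood at 9.68 times the level of CCND1, 6.46 times that of CCND3 and 73.3 times that of RB1. This scaling assigns every CDKN2A read to the 978-base p16 transcript, including reads from the ARF start. These ratios are therefore not those of p16 alone. On that scale CCND3 took the second place at 62.1 (rescaled FPKM), above CDKN1A at 43.2 and CCND1 at 41.5. The first place and the lower tier of 6 genes were the same under both lengths, so only the order within the second tier rested on this choice.

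CDKN2B, which encodes the related INK4 inhibitor p15 and lies beside CDKN2A (chromosome 9, 22002903 to 22009305, minus strand), was the least abundant member. It gave 8.49, 10.2 and 10.3 CPM in the libraries labelled control and 12.7, 12.2 and 5.99 CPM in those labelled knockdown. Knockdown replicate 3 was the lowest library and knockdown replicate 1 the highest, so the groups overlapped. The edgeR estimate on the log2 scale was 0.09 (SE 0.268), adjusted p 0.937. In FPKM, CDKN2A was 41.2 to 93.9 times as abundant as CDKN2B, and the largest ratio was that of knockdown replicate 3. The antisense RNA CDKN2B-AS1, with 593 exon bases overlapping CDKN2A, had 24 to 51 reads per library.

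To compare the labels, the differences of all members were taken from 1 edgeR fit across the 15299 tested genes. CCND2 and CDKN1B were lower in all 3 libraries labelled knockdown than in any library labelled control, CDKN2A was slightly higher on average, and the other 7 members had intervals that included no change. None of the 10 members passed an adjusted p of 0.05, and neither did any other gene (0% of tested genes, edgeR). DESeq2 called 31 genes, CCND2 among them, and limma-voom called 0. At an unadjusted p under 0.05 there were 3 members, against 1251 genes or 8.18% of all tested genes. CCND2 and CDKN1B were the 2 lower ones (4.32% of all genes passed in that direction) and CDKN2A was the higher one (3.86%). The groups did not overlap for 2 members, both lower (7.7% of all genes), against 15.6% of all genes in either direction. With fewer libraries non-overlap is more frequent among all genes. The members' count was 5 without control replicate 1 (32% of all genes), 2 without control replicate 2 (21.7%), 2 without control replicate 3 (27%), 2 without knockdown replicate 1 (20%), 4 without knockdown replicate 2 (25.5%) and 5 without knockdown replicate 3 (29.7%), and CCND2 and CDKN1B were included each time. The median log2 fold change was -0.11 over the members and -0.0065 over all tested genes.

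**Figure D3:**
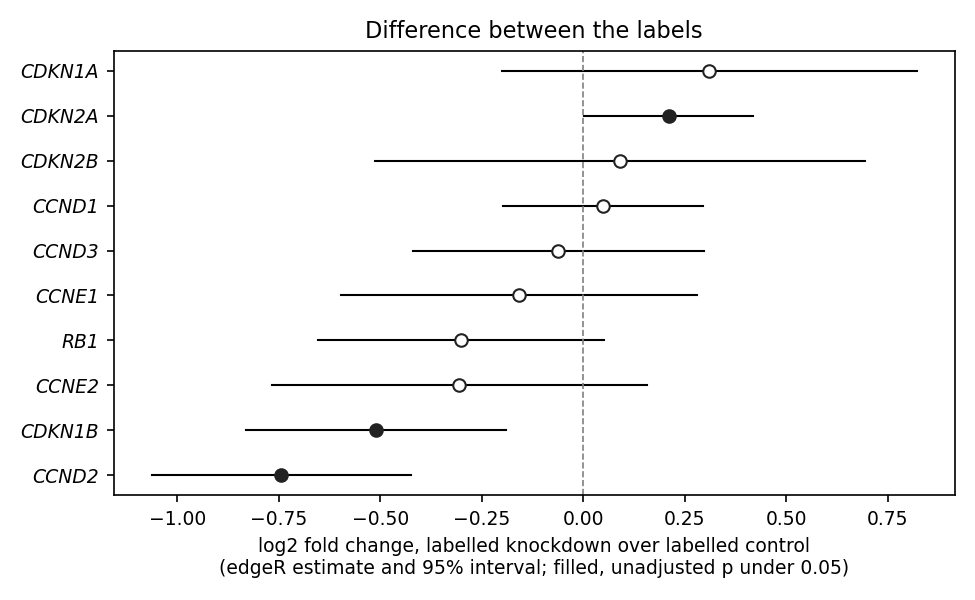
The edgeR log2 fold change of each member (points) with its 95% interval (lines), where values below 0 are lower in the libraries labelled knockdown. The intervals of CCND2, CDKN1B and CDKN2A exclude 0 (filled points, unadjusted p under 0.05), and those of the other 7 members include it. CDKN2A did not keep that p under several alternatives, among them DESeq2.

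CCND2, the cyclin D2 gene (ENSG00000118971.7, chromosome 12, 4269771 to 4305353, plus strand), had the largest absolute estimate of the members. The libraries labelled control held 821, 839 and 834 reads and those labelled knockdown held 611, 581 and 458. In CPM this was 33.7, 25.7 and 26.8 against 17.9, 17.6 and 15.9. Each library labelled knockdown lay below the lowest control. The means were 28.7 ± 4.33 and 17.1 ± 1.1 CPM (SD, n = 3), and the edgeR estimate on the log2 scale was -0.74 (SE 0.141), adjusted p 0.419, with a 95% interval of the difference from -52.1% to -25.5%. DESeq2 called CCND2 at an adjusted p of 0.00832, as 1 of the 0.188% of genes that it called, and edgeR without the low-count filter called it at an adjusted p of 0.00285, as 1 of 0.613%. Over all alternatives its adjusted p ranged from 0.00285 to 0.988. Without control replicate 2 its estimate was -0.82, whereas omission of control replicate 1 gave -0.61, the extremes over the 6 omissions. CCND2 also shares 999 exon bases with ENSG00000285901 on the same strand, which was not analysed here, and the antisense CCND2-AS1 had at most 1 read in any library.

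The groups overlapped for both other D-type cyclins. CCND1 (cyclin D1, chromosome 11, 69641156 to 69654474, plus strand) gave 171.9, 156 and 191.8 CPM in the libraries labelled control and 173, 167.8 and 196.8 CPM in those labelled knockdown, and the groups overlapped almost entirely. Its edgeR estimate on the log2 scale was 0.05 (SE 0.109), adjusted p 0.912, and the interval of the difference ran from -12.8% to 22.7%. CCND3 (cyclin D3, chromosome 6, 41934934 to 42050357, minus strand) gave 148.3, 125.1 and 112.9 CPM against 124.2, 98.3 and 147.8 CPM. Its highest values were in control replicate 1 and knockdown replicate 3, and its log2 fold change of -0.06 carried an SE of 0.159, with adjusted p 0.928. The difference between CCND2 and the other D-type cyclins was not tested as such. In FPKM, CCND2 made up 6.35%, 5.57% and 5.41% of the summed D-type cyclins in the libraries labelled control and 3.75%, 4.13% and 2.9% in those labelled knockdown. The sum itself was 72.5 ± 4.39 and 70.1 ± 9.39 FPKM (SD, n = 3), a difference within the spread between replicates.

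CDKN1B encodes p27, an inhibitor of cyclin E-CDK2 that accumulates in resting cells (ENSG00000111276.10, chromosome 12, 12685498 to 12722369, plus strand). The 574, 824 and 588 reads of the libraries labelled control corresponded to 23.5, 25.2 and 18.9 CPM. Those labelled knockdown held 541, 526 and 453 reads, or 15.9, 15.9 and 15.7 CPM. The libraries labelled knockdown were nearly identical to each other and all lay below the lowest control. The edgeR estimate on the log2 scale was -0.51 (SE 0.142), adjusted p 0.599, and the interval of the difference ran from -43.8% to -12.3%. DESeq2 did not call it (adjusted p 0.316). Over the 6 omissions the estimate was lowest at -0.62 (control replicate 3 omitted) and highest at -0.42 (control replicate 2 omitted). A RefSeq window is given since CDKN1B was the second of the members whose groups did not overlap (chr12:12717118-12717367, plus strand, GC box in capitals). This window precedes base 12717368, inside the gene, which starts at 12685498. It is therefore not the sequence before the first CDKN1B start, which was not searched. The window held 1 GC box and 0 matches to the FOXO motif GTAAACA, which 2.98% of all windows held.
CDKN1B start: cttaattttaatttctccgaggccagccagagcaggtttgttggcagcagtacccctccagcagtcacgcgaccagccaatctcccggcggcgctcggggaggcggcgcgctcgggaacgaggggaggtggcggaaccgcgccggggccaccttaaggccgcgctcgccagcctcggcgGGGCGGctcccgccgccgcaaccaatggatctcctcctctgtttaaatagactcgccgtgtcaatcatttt

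Of 8 gene groups summed for comparison, 2 did not overlap between the labels. These gene groups were chosen with earlier results of these data known, so the sums are a description and not a test. Among single tested genes 15.6% did not overlap, and no such share was taken for sums. The summed FPKM of 10 interferon-stimulated genes was 47 to 65.5 for the control label and 125 to 349.2 for the knockdown label, highest in knockdown replicate 3. The summed FPKM of CCNB1, CCNB2, CDK1, MKI67 and TOP2A was 189.9 to 210.2 and 152.1 to 157.8. CCNB1 was the largest part of that sum (95.6 to 107.1 and 74.3 to 81.3 FPKM). Taken singly, MKI67 and TOP2A overlapped between the labels. The other 6 gene groups overlapped, among them the S-phase genes under E2F (1318 to 1341 and 1210 to 1347 FPKM). Their part in the differences of CCND2, CDKN1B and CDKN2A was not tested.

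**Figure D4:**
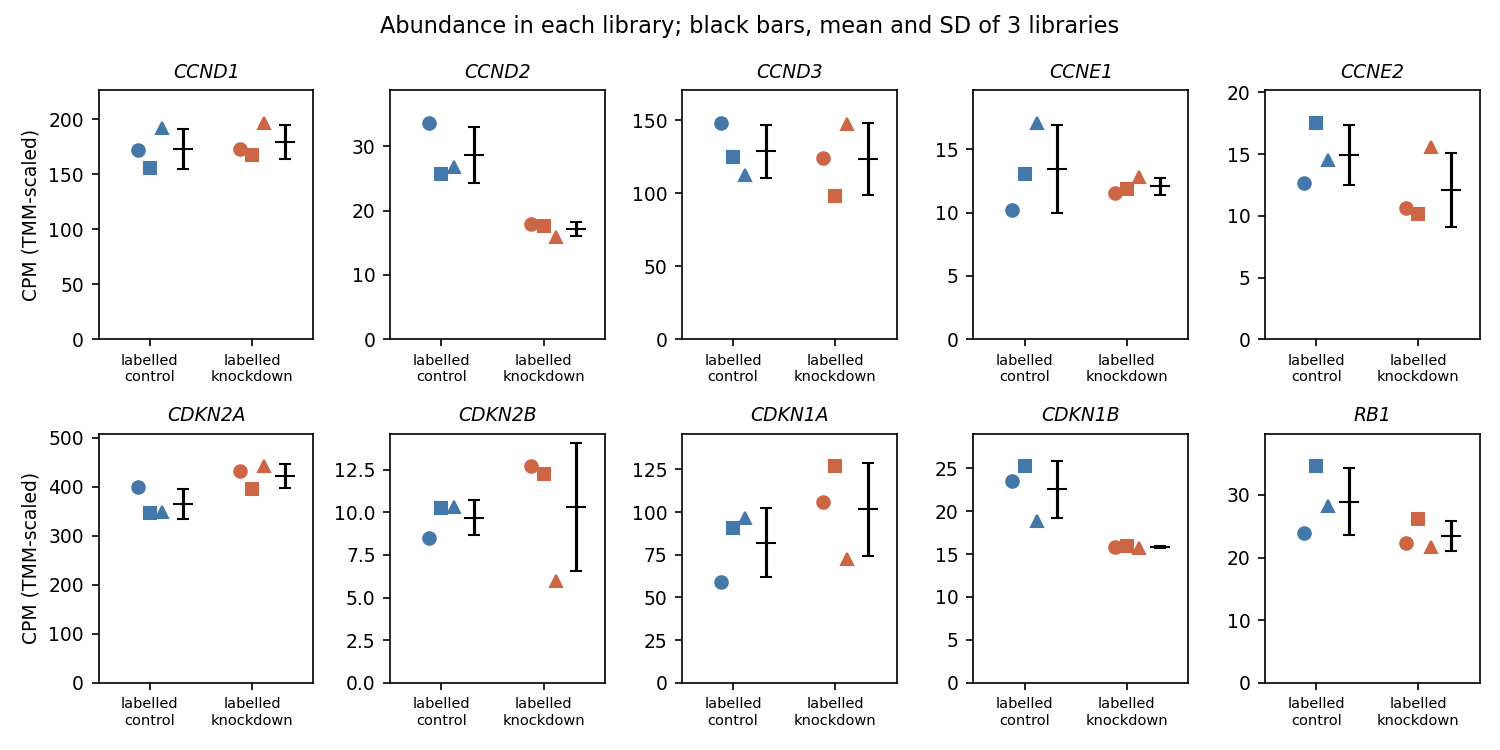
TMM-scaled CPM of each member in each library, with axes from 0 and black bars for the mean and SD of 3 libraries. CCND2 and CDKN1B are lower in every library labelled knockdown than in any control, and the groups of the other 8 members overlap.

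CDKN1A encodes p21, an inhibitor of cyclin-CDK complexes that is induced by DNA damage (ENSG00000124762.13, chromosome 6, 36676460 to 36687337, plus strand). It gave 58.9, 90.4 and 96.6 CPM in the libraries labelled control and 105.8, 126.8 and 72.5 CPM in those labelled knockdown. Control replicate 1 and knockdown replicate 3 were the lowest libraries of their groups and of all 6. The log2 fold change of 0.31 carried an SE of 0.227, with edgeR adjusted p 0.713, and it was 0.12 without control replicate 1, also 0.12 without knockdown replicate 2 and 0.51 without knockdown replicate 3. Relative to CDKN1B, CDKN1A was 2.65, 3.8 and 5.42 times as abundant in FPKM in the libraries labelled control and 7.06, 8.43 and 4.89 times in those labelled knockdown. Both libraries with little CDKN1A also had the fewest counted reads of their groups (24231267 and 28866835), and the part of depth was not tested.

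The E-type cyclins were close to each other in level. CCNE1 (cyclin E1, chromosome 19, 29811991 to 29824312, plus strand) gave 10.2, 13.1 and 17.1 CPM in the libraries labelled control and 11.5, 11.9 and 12.8 CPM in those labelled knockdown. The latter lay inside the range of the controls, and the edgeR estimate on the log2 scale was -0.16 (SE 0.195), adjusted p 0.829. CCNE2 (cyclin E2, chromosome 8, 94879770 to 94896678, minus strand) gave 12.7, 17.5 and 14.5 CPM against 10.6, 10.1 and 15.6 CPM. Only knockdown replicate 3 reached the controls, and the edgeR estimate on the log2 scale was -0.31 (SE 0.205), adjusted p 0.689. Omission of knockdown replicate 3 moved the CCNE2 estimate to -0.52, and it was -0.17, -0.19 and -0.22 when control replicate 2, knockdown replicate 2 and knockdown replicate 1 were omitted. In FPKM, CCNE1 was 1.23 to 1.94 times as abundant as CCNE2 in the 6 libraries. CCNE2 shares 1629 exon bases with INTS8 on the opposite strand, and CCND1 shares 497 with LTO1 (466 to 611 reads per library). CDKN1A shares 146 with DINOL, which was not analysed here. INTS8 had 912 to 1538 reads per library against 309 to 573 for CCNE2, and since it is not given whether strand was used in counting, the CCNE2 values are uncertain.

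RB1 encodes the pocket protein that restrains E2F (ENSG00000139687.13, chromosome 13, 48303744 to 48599436, plus strand). Its transcript was present in every library, at 4.26 to 6.84 FPKM. In CPM it gave 23.9, 34.5 and 28.2 in the libraries labelled control and 22.4, 26.2 and 21.8 in those labelled knockdown. Only knockdown replicate 2 lay above the lowest control. The edgeR estimate on the log2 scale was -0.30 (SE 0.156), adjusted p 0.631, with an interval of the difference from -36.5% to 3.59%. Omitting control replicate 2 gave -0.15 and omitting control replicate 1 gave -0.42. The related pocket proteins p107 (RBL1) and p130 (RBL2) reached 3.14 and 5.21 FPKM on average, so RB1 was of the same order as both. Their edgeR log2 fold changes were 0.04 and -0.21, with adjusted p of 0.94 and 0.686.

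The partners of the members were examined next. CDK4, a kinase that p16 inhibits, was at 252.5, 256.3 and 263.2 FPKM in the libraries labelled control and 280.2, 268.6 and 297.1 FPKM in those labelled knockdown, and CDKN2A reached 0.384 to 0.462 of the summed CDK4 and CDK6. Which was higher rested on the length used: with canonical transcripts, CDKN2A was at 1.12 to 1.34 times that sum and above CDK4 in each library. That scaling again assigned every CDKN2A read to the p16 transcript. CDK4 did not overlap between the groups, but its edgeR log2 fold change of 0.15 had an adjusted p of 0.631. CDK6 was far lower (4.41 to 8.76 FPKM) and overlapped. CDK2, the partner of cyclin E, gave 79.3 ± 3.04 CPM in the libraries labelled control and 69 ± 2.04 CPM in those labelled knockdown (SD, n = 3), without overlap, with a log2 fold change of -0.20 and an adjusted p of 0.61. CDK7, part of the kinase that activates the other CDKs, had a log2 fold change of -0.20 with an adjusted p of 0.671. MDM2, which encodes a ubiquitin ligase, gave 20, 29.4 and 26.2 CPM in the libraries labelled control and 18.3, 17.4 and 12.9 CPM in those labelled knockdown. Without the low-count filter edgeR called MDM2 (adjusted p 0.0332). The MDM2 groups did not overlap, and the log2 fold change of -0.64 carried an SE of 0.186, with adjusted p 0.599.

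Over 8 lists of 48 partner and downstream genes, 0 passed an edgeR adjusted p of 0.05. At an unadjusted p under 0.05 there were 7 lower and 1 higher, 8 of 48. Of all tested genes 8.18% passed, 4.32% lower and 3.86% higher. The median log2 fold change over the 48 was -0.12. Their estimates were below 0 for 35 of 48, against 7804 of 15299 over all tested genes. The 5 mitotic genes were all estimated lower, with a median of -0.37. CDK1, the mitotic kinase, had a log2 fold change of -0.45 (adjusted p 0.583), and MKI67, which marks cycling cells, had -0.40 (adjusted p 0.657). MKI67 gave 118.9, 154.6 and 118.4 CPM for the control label and 110.5, 126 and 61.2 CPM for the knockdown label. Its groups therefore overlapped, and knockdown replicate 3 was the lowest library. Of 14 S-phase genes under E2F, 9 were estimated lower and 5 higher, with a median of -0.05. CCNA2, the cyclin A2 gene, was called without the low-count filter (edgeR adjusted p 0.0142). It gave 83.8 ± 3.06 CPM in the libraries labelled control and 58.1 ± 9.55 CPM in those labelled knockdown (SD, n = 3), with a log2 fold change of -0.53 and an adjusted p of 0.599. RRM2, a subunit of ribonucleotide reductase, had -0.35 with the same adjusted p, and MCM2, part of the replicative helicase, was the gene estimated higher at an unadjusted p under 0.05, at 0.20. Among the 10 E2F and DP genes 9 estimates were below 0, led by the repressors E2F8 (-0.41, adjusted p 0.664) and E2F7 (-0.32, adjusted p 0.61), and none had an unadjusted p under 0.05. All 4 genes for turnover of p27 and cyclin E were estimated lower without reaching that level, with -0.21 for CUL1 and -0.20 for FBXW7. Of the other CDK inhibitors, CDKN1C (p57) had a log2 fold change of 0.37 with overlapping groups (13.8 to 38.3 FPKM) and CDKN2C (p18) had -0.19.

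**Figure D5:**
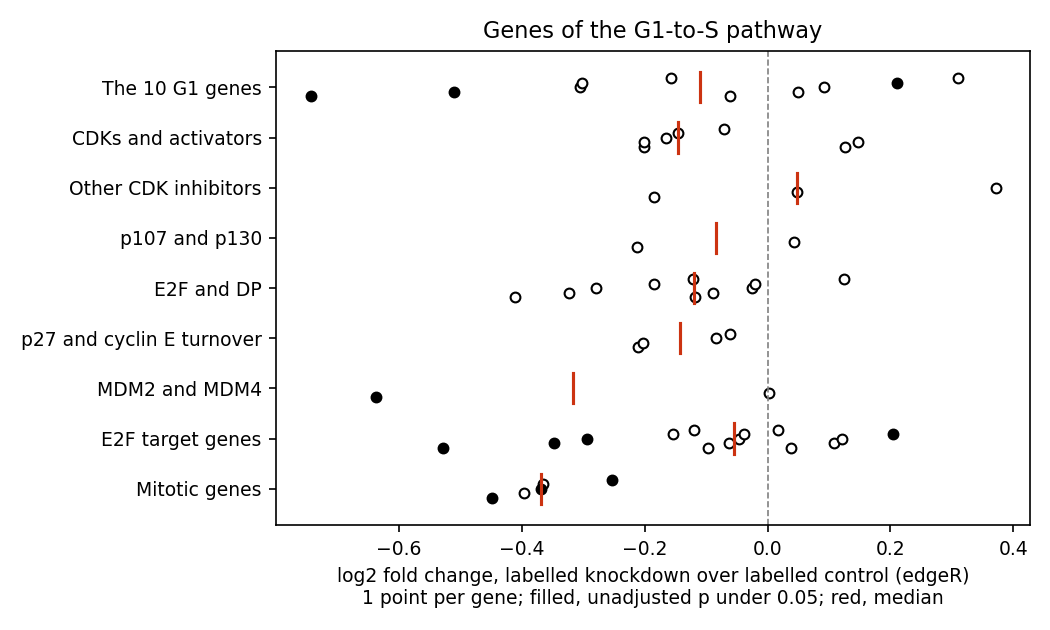
The edgeR log2 fold change of genes of the G1-to-S pathway, 1 point per gene in rows by role, with filled points for an unadjusted p under 0.05 and red lines for medians. All 5 mitotic genes lie below 0, and the E2F target genes lie on both sides.

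For the 3 most abundant members, the tested genes with the closest pattern across the 6 libraries were identified by the root mean square difference of log2 CPM, after centring each gene on its own mean, among 13208 candidates. For CDKN2A they were FAM96B (0.0143), EIF2B4 (0.0194) and SNX8 (0.0239), against a spread of 0.135 for CDKN2A itself. For CCND1 they were PROSC (0.0281), NSMCE4A (0.0346) and RPS3A (0.0353), against a spread of 0.114. CDKN1A varied more (0.361), and its nearest genes were the renal transcription factor PAX8 (0.054), TMEM132A (0.0593) and MAFF (0.0676). PAX8 gave 342.7, 537.3 and 552.5 CPM in the libraries labelled control and 599.7, 677 and 393.3 CPM in those labelled knockdown. Its order of libraries was that of CDKN1A, but PAX8 was selected for its closeness to CDKN1A, so this is no separate finding.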

How the data were processed

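The authors deposited raw read counts per gene for 26899 genes and FPKM values for 26803 genes, in 3 libraries labelled control and 3 labelled knockdown. The submitters' processing notes name bcl2fastq, TopHat2, edgeR and GRCh38. No counting program, annotation release or strand setting is given in the sources used here. The labels describe oligo(dT) selection and directional libraries. Replicates differed far beyond sampling noise (chi-square per degree of freedom 7.34 to 37.9), so each was counted as 1 sample.

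The count test was glmQLFTest from edgeR 4.0.16 (R 4.3.3), a quasi-likelihood F-test, with TMM factors of 0.987 to 1.02 and the low-count filter of that package (count of 10, total of 15). Tests were two-sided, over 15299 genes, with Benjamini-Hochberg adjustment over all of them and a threshold of 0.05. CPM are TMM-scaled. Abundances per length are the deposited FPKM. The code was tested on simulated data. Alternatives were other scalings, no filter, DESeq2 1.42.0, limma 3.58.1 on counts and on log2(FPKM + 1) or log2(FPKM + 0.1), the replicate block and the omission of each library.

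The members and gene lists were chosen with earlier results of these data known. The text names the 10 members, CDK4, CDK6, RBL1, RBL2 and ANXA2, the 2 genes of each partner list with the largest absolute estimate (mean of at least 1 CPM) since none passed the adjusted threshold, the nearest patterns of the 3 most abundant members, and genes overlapping a member. 1 gene of the partner lists enters their counts and is not reported here. Marker genes were named to check the cells. MCM2, CCNB1, CCNB2 and TOP2A were named after their values were seen. Coordinates are from GENCODE release 44 and promoters from RefSeq (GRCh38.p14).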

Additional observations from a re-analysis of the deposited data

How the results depend on the processing

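No gene passed an adjusted p of 0.05 in edgeR (1251 at an unadjusted p under 0.05), and limma-voom also gave 0 (1322 unadjusted). DESeq2 gave 31 genes (1285 unadjusted) and edgeR without the low-count filter gave 165, and leaving out 1 library gave 0 to 4, the 4 without knockdown replicate 2. The member called was CCND2 in both, so the count of members was 1 with DESeq2 and 1 without the filter, and 0 under every other alternative, including each omission of a library. Among partner genes 2 were called without the filter, CCNA2 and MDM2, and 0 under the other alternatives. Why these fits called more genes was not tested. The count of members with an unadjusted p under 0.05 was 3, and 2 to 4 when 1 library was left out. It was 2, without CDKN2A, with upper-quartile scaling, library size only, DESeq2, log2(FPKM + 0.1) and the fit on a mean FPKM of at least 1. The count of members whose groups did not overlap was 2, and 2 to 5 on such omissions, where 20% to 32% of all genes did not overlap. It was 5 without control replicate 1 (adding CCNE1, RB1 and CDKN2A), 4 without knockdown replicate 2 (adding RB1 and CDKN2A) and 5 without knockdown replicate 3 (adding CCNE2, CDKN1A and CDKN2B). CCND2 and CDKN1B were among them in each case.

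Of 160 member estimates under alternatives, 151 had the same sign and the same call, 2 became calls (CCND2) and 7 changed sign. All sign changes came from omitting 1 library, where estimates ranged from -0.0221 to 0.13 for CCND1, from -0.209 to 0.0824 for CCND3, from -0.318 to 0.0527 for CCNE1 and from -0.0849 to 0.365 for CDKN2B, and the cause was not tested. On omissions, the log2 ratio of CDKN2A to CCND1 differed between labels by 0.0526 to 0.233 and that to RB1 by 0.329 to 0.696. Correlations of same-numbered deviations were -0.0616, 0.118 and -0.203, within the span of differently numbered ones (-0.226 to 0.217). With 3 libraries per group these values cannot settle whether the replicate numbers pair the libraries. With the replicate block the counts were 0 genes past the adjusted threshold and 3 members at an unadjusted p under 0.05. The canonical lengths, also used for CDK4 and CDK6, and the omissions for the order of levels were chosen after seeing the data, and each left 7 overlapping neighbours. The standard error of CDKN2B was 0.268, and 0.17 without knockdown replicate 3.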

Other observations

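CDKN1A, CDKN2B, CDK6 and PAX8 each had their 2 lowest CPM values in control replicate 1 and knockdown replicate 3. For CDK6 these were 66.2 and 54.7 CPM, against 87.9 to 107.7 CPM in the other 4 libraries. CCND3 had its 2 highest values (148.3 and 147.8 CPM) in the same libraries, 1 from each label. These libraries also detected the fewest genes, with 18861 and 19569 genes at 1 read or more, against 20764 to 21819 in the others. The part of depth in this pattern was not tested. The genes of this pattern were chosen after their values were seen.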
